A study of Mus musculus with 24 samples.

Results

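Kidneys of alloxan-diabetic mice fed enarodustat were compared with kidneys of diabetic mice on plain feed. The members are the 9 arrays labelled DKD+enarodustat and the 9 arrays labelled DKD, 18 of the 24 arrays of the series, and they were chosen by label alone. DKD stands for diabetic kidney disease. All mice were male Crl:CD1(ICR), an outbred stock. Both DKD groups had received alloxan, which destroys insulin-producing beta cells, at 90 mg/kg intravenously 3 days before grouping. Their blood glucose and body weight had been balanced between the groups. The treated mice then ate feed with 0.01% enarodustat by weight, the others ate normal feed, and renal tissue was collected on day 16 after grouping. The remaining 6 arrays, labelled Sham, came from mice given vehicle and normal feed, and their values are given beside the DKD arrays only as a reference. Each array measured total RNA of renal tissue from 1 mouse with Cy3 on a single-colour Agilent array.

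Enarodustat inhibits the prolyl hydroxylases of hypoxia-inducible factor (HIF). In normal oxygen these enzymes hydroxylate the HIF alpha subunits, which are then bound by the von Hippel-Lindau protein and degraded. When the enzymes are inhibited, HIF alpha accumulates, pairs with its beta subunit and binds promoters and enhancers that hold a short core, ACGTG or GCGTG. In cells it is known to switch on genes of glycolysis, lactate export, blood vessel signalling and its own prolyl hydroxylases. In the kidney, HIF is best known for the induction of erythropoietin in interstitial cells.

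The sequences of 7 promoters of genes that rose are shown first, because each holds the core to which HIF binds and together they cover lactate export, glycolysis, glycogen, collagen hydroxylation and the HIF oxygen sensor itself. Each line gives 100 bases upstream of the transcription start from RefSeq, build GRCm38.p6, read 5′ to 3′ on the strand of the gene, with ACGTG or GCGTG, or their reverse complements CACGT or CACGC, in capitals.
Slc16a3, chr11:120948967-120949066, plus strand: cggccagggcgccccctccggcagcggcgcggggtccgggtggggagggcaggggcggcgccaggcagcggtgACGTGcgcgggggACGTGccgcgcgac
Ankrd37, chr8:45999851-45999950, minus strand: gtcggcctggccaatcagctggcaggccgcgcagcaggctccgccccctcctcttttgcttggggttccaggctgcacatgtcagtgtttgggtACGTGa
Pfkp, chr13:6648772-6648871, minus strand: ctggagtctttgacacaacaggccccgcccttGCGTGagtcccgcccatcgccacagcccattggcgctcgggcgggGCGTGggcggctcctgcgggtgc
Hk2, chr6:82774455-82774554, minus strand: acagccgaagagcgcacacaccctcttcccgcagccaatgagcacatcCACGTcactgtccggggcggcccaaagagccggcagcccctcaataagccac
P4ha1, chr10:59323196-59323295, plus strand: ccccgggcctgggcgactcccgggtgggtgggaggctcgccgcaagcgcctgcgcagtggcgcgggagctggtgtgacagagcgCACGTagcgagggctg
Egln1, chr8:124949255-124949354, minus strand: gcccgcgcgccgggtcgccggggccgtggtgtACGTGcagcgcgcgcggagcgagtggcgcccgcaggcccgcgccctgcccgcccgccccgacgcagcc
Ppp1r3g, chr13:35967806-35967905, plus strand: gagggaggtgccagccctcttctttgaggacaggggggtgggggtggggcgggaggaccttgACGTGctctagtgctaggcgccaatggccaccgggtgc

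In the full 250 bases upstream, the number of such matches was 2 for Slc16a3, 4 for Ankrd37, 3 for Pfkp, 2 for Hk2, 3 for P4ha1, 2 for Egln1 and 1 for Ppp1r3g. The match closest to the start lay 14 bases upstream in Slc16a3, 6 in Ankrd37 and 16 in P4ha1. Over all genes that rose the core was about as common as elsewhere. It was present in 40 of the 80 risen genes that matched the RefSeq table (50%), in 49.8% of the 14005 tested genes that matched, and in 38.6% of all 27025 promoters of the table. ACGTG was found in 23 of the 80 (28.7%) against 19.6% of tested genes, and GCGTG in 29 (36.2%) against 39.1%. ACGTG also lies inside CACGTG, a core bound by other factors, which was held by 3 of the 80 (3.75%) and by 7.55% of tested genes. Of the listed HIF targets outside glucose metabolism, 26 of 38 matched promoters held the core (68.4%), and of the glycolysis genes 13 of 22 (59.1%). Mean GC content was 58.6% in promoters of risen genes and 57.7% in those of tested genes, but 62.3% in those of the HIF targets and 56.2% in those of the glycolysis genes. A match is a run of letters and not a measured binding site.

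The arrays lay on 3 slides of 8, each slide with 3 DKD and 3 enarodustat arrays. Position on the slide followed the groups. All 9 enarodustat arrays were in slide row 2, and of the DKD arrays 3 were in row 2 and 6 in row 1. Values from row 2 arrays alone (9 enarodustat against 3 DKD) therefore stand beside the main results, and differences within each slide hold 3 arrays of each group. Between 37716 and 44732 spots per array were well above background, and correlations over genes between arrays of the same group ran from 0.964 to 0.991. Enarodustat 3 carried a quality warning of the scanner software. The tissue label was borne out by its markers, since all 18 proximal tubule, 9 podocyte and 8 thick ascending limb markers were well above background on all 18 arrays. Levels are log2 signal minus the log2 75th percentile of the array, and differences are log2 differences of these levels, enarodustat minus untreated DKD. Of 17736 genes tested with limma over all 24 arrays, 127 passed at an adjusted p (Benjamini-Hochberg) under 0.05, 0.716% of those tested.

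The change was small in number of genes and mostly upward. Of the 127 genes, 108 were higher with enarodustat (0.609% of genes tested) and 19 were lower (0.107%). The submitters' deposited value table gave 149 genes, 103 higher and 46 lower, so the share of higher calls was 85.0% in the main fit and 69.1% in that table. At least 2-fold rises were found in 24 genes and at least 2-fold falls in 0, and the median absolute difference of the 127 was 0.55. In 26 genes the 2 groups of 9 arrays did not overlap (0.147%), 24 of them higher (0.135%) and 2 lower (0.0113%). All 127 kept their sign in each of the 3 slides and in row 2 alone, which are parts of the same arrays that gave the calls. The median difference over all genes was 0.005, and at an unadjusted p under 0.05 there were 1937 genes.

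Far fewer genes passed when slide row was taken into account. Within row 2 the DKD arrays were all in slide column 1 and the enarodustat arrays in columns 2 to 4. Column and group therefore cannot be told apart in row 2 alone, and no fit held a column term. In row 2 arrays alone 11 genes passed (0.062%), all of them higher, and these were Slc16a3, Ankrd37, Tnfsf9, Pfkl, Gm11110, Mgarp, Rgs11, Pfkp, Ppp1r3g, Slc4a11 and 4931428F04Rik. When slide row was added to the model 20 passed, 17 of them among the 127. Between the 3 DKD arrays of row 2 and the 6 of row 1, 0 genes passed by limma, with 1157 at an unadjusted p under 0.05. For the rest of the 127, the row 2 difference rested on 3 DKD arrays and did not pass, so row and treatment were only partly separated. The row 2 difference had the sign of the main one for all 127. Since column followed group within row 2, slide position and treatment cannot be fully told apart for any gene.

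**Figure D1:**
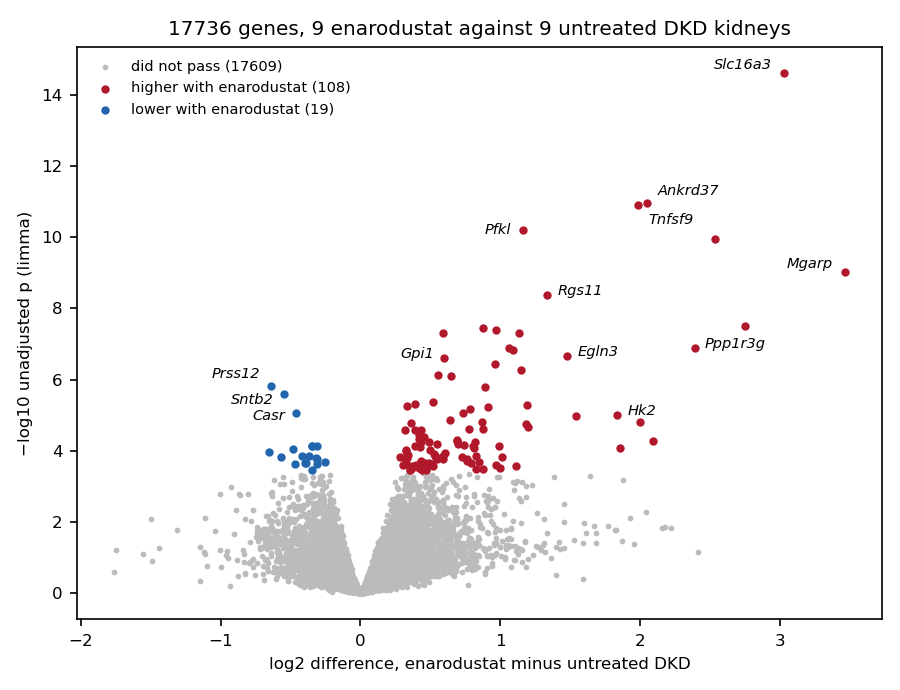
Each point is 1 of 17736 genes; the x axis is the log2 difference, enarodustat minus untreated DKD, and the y axis is −log10 of the unadjusted limma p. The 108 red genes that rose reach further from 0 than the 19 blue genes that fell, with Slc16a3 and Mgarp farthest to the right and no fall beyond −0.65.

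Slc16a3, the lactate exporter MCT4, had the smallest p of all genes. Its level ran from −2.13 to −1.60 over the untreated DKD arrays (median −1.82) and from 0.44 to 1.91 over the enarodustat arrays (median 1.05). The groups did not overlap, and the sham arrays lay lower still, from −3.70 to −2.79. The difference was 3.03 ± 0.17 (SE; 8.19-fold, adjusted p = 4.27e-11 by limma), and it was 2.93 in row 2 alone (adjusted p = 0.00276). Slides 1, 2 and 3 gave 2.99, 3.46 and 2.65, so the rise was of similar size on each. Slc16a3 was the only 1 of 18 glucose and monocarboxylate transporters that passed (5.56%, against 0.716% of all genes). At an unadjusted p under 0.05 by limma, 3 of the 18 were higher and 5 lower. Slc16a1, the other widely expressed lactate carrier MCT1, differed by −0.01 (adjusted p = 0.995), and the glucose transporter Slc2a1 by 0.42 (adjusted p = 0.137). Slc5a2, which takes up filtered glucose in the proximal tubule, differed by −0.17 (adjusted p = 0.311).

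Glycolysis genes were the pathway list with the largest share of calls. Of 24 tested, 10 rose and 0 fell (41.7%, against 0.716% of all genes), and 14 did not pass. The list median was 0.38, with 16 of 24 positive, against 0.005 over all genes. It was 0.26 in row 2 alone, and 0.27, 0.45 and 0.34 in slides 1, 2 and 3. In row 2 alone 2 of the 10 passed, Pfkl and Pfkp, and with slide row as a term 3 did. Scaling by the median of the array left 4.

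Both Pfkl and Pfkp, subunits of phosphofructokinase, the enzyme of the committed step of the pathway, rose. Pfkl, the liver-type subunit, lay between 0.35 and 0.91 on DKD arrays (median 0.50) and between 1.36 and 2.25 on enarodustat arrays (median 1.69). It rose by 1.17 ± 0.10 (adjusted p = 2.72e-07), without overlap, and by 1.29 in row 2 alone (adjusted p = 0.0165). Pfkp, the platelet-type subunit, ran from 0.92 to 2.15 on DKD arrays (median 1.79) and from 2.44 to 3.18 with enarodustat (median 2.84). Its rise was 1.13 ± 0.14 (adjusted p = 7.43e-05), and 1.31 in row 2 alone (adjusted p = 0.025). Pfkl thus rose 2.24-fold and Pfkp 2.19-fold, while the muscle-type subunit Pfkm differed by −0.11 (adjusted p = 0.535). Pfkfb3, which makes the activator fructose 2,6-bisphosphate, ran from −0.39 to 0.42 on DKD arrays (median 0.31) and from 0.41 to 1.26 with enarodustat (median 0.92). It rose by 0.64 ± 0.12 (adjusted p = 0.00701), and its row 2 value was 0.85 (adjusted p = 0.274). Pfkfb3 was the only 1 of 11 listed regulators to pass (9.09%, against 0.716% of all genes). Its relative Pfkfb4 differed by 0.13 (adjusted p = 0.754).

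At the entry of glucose, the inducible hexokinase Hk2 ran from −7.86 to −4.85 on DKD arrays (median −5.81) and from −5.0 to −3.36 with enarodustat (median −4.39). The signal stood well above background on only 3 of 9 untreated arrays and on all 9 treated ones, so the difference of 1.84 ± 0.33 (adjusted p = 0.00525) rests in part on dim DKD signals. Hk2 had a row 2 difference of 2.79 (adjusted p = 0.0621), and the 3 DKD arrays of row 2 differed from the 6 of row 1 by −1.44. After normexp background correction on median signals it was 0.22 (adjusted p = 0.233). The major hexokinase Hk1 differed by −0.07 (adjusted p = 0.867).

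Later steps of glycolysis moved less. Of the aldolases, Aldoc ran from 2.01 to 2.66 on DKD arrays (median 2.43) and from 2.88 to 3.73 with enarodustat (median 3.27), and it rose by 0.97 ± 0.12 (adjusted p = 7.05e-05) without overlap. Aldoc was also higher in untreated DKD than in sham, by 1.00, and in treated kidneys than in sham by 1.98; these values share arrays. Aldoa rose by 0.47 ± 0.11 (adjusted p = 0.0484). The next 4 genes were singled out after their values were seen. Gpi1, which interconverts glucose and fructose phosphates, rose by 0.60 ± 0.08 (adjusted p = 0.000259). Eno2, an enolase, rose by 0.87 ± 0.16 (adjusted p = 0.00729; normexp 0.39, adjusted p = 0.0417). The mutase Pgam1 rose by 0.51 and the pyruvate kinase Pkm by 0.40 (adjusted p = 0.0403 and 0.0422). Eno1 rose by 0.44 (adjusted p = 0.0426), but the near-identical Eno1b had the same value and the probes may not separate them. Ldha, which turns pyruvate into lactate, differed by 0.47 (adjusted p = 0.0643) and Pgk1 by 0.34 (adjusted p = 0.171).

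The calls of Aldoa, Pgam1, Pkm and Eno1 rested on the full set of arrays. Aldoa passed only without DKD 4, DKD 6 or enarodustat 7 when 1 array was left out (adjusted p up to 0.109 otherwise). Eno1 passed only without DKD 3 or 7 or enarodustat 3 or 7 (up to 0.0982), and Pgam1 only without DKD 3 or 9 or enarodustat 1, 3 or 7 (up to 0.0914). Pkm passed only without DKD 5, 6 or 9 or enarodustat 3, 6 or 7 (up to 0.0975). Their row 2 differences were 0.32, 0.30, 0.30 and 0.28, none with a call, and the count of glycolysis calls ran from 6 to 12 over the 18 fits that leave out 1 array.

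**Figure D2:**
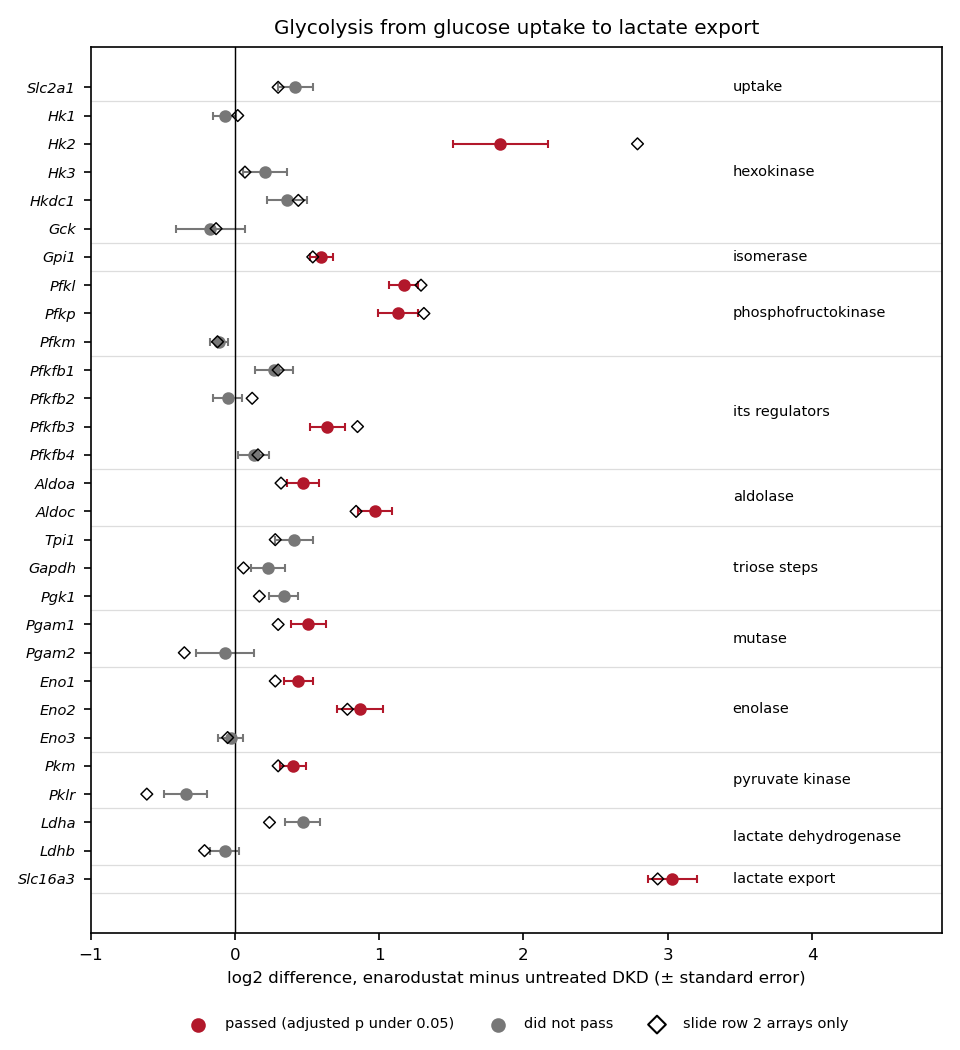
The x axis is the log2 difference with its standard error, enarodustat minus untreated DKD, for genes ordered from glucose uptake to lactate export; red marks genes that passed and open diamonds give slide row 2 arrays alone. The largest difference is in Slc16a3 at 3.03, followed by Hk2, Pfkl and Pfkp, and the diamonds of Aldoa, Eno1 and Pgam1 lie nearer to 0 than their circles.

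Of 17 HIF pathway components tested, 2 rose and 0 fell (11.8%, against 0.716% of all genes). Both are HIF prolyl hydroxylases, and both are counted again among the HIF targets outside glucose metabolism. Egln3 ran from −2.03 to −0.48 on DKD arrays (median −1.07) and from −0.51 to 0.97 with enarodustat (median 0.59), with 8 of 9 treated arrays above every DKD array. It rose by 1.48 ± 0.21 (adjusted p = 0.000244), and by 1.25 in row 2 alone (adjusted p = 0.271). Egln1, the main oxygen sensor, ran from 3.24 to 3.64 on DKD arrays (median 3.39) and from 3.66 to 3.82 with enarodustat (median 3.75). This small rise of 0.33 ± 0.06 (adjusted p = 0.00358) kept the groups apart on every array, but it did not pass in row 2 alone (0.32, adjusted p = 0.398), after scaling by the median of the array (0.29, adjusted p = 0.412) or in the deposited table (0.28, adjusted p = 0.0719). The third hydroxylase Egln2 differed by −0.08 (adjusted p = 0.861).

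The messages of the HIF subunits and of their degrader did not pass. Hif1a differed by −0.09 (adjusted p = 0.693), Epas1, which encodes HIF-2 alpha, by 0.15 (adjusted p = 0.817), and Hif3a by 0.44 (adjusted p = 0.526). Vhl, the von Hippel-Lindau protein that marks HIF alpha for degradation, differed by 0.01 (adjusted p = 0.994). The arrays measure RNA, so HIF protein was not analysed here.

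Of 50 tested HIF targets outside glucose metabolism, 12 rose and 0 fell (24%, against 0.716% of all genes), and 38 did not pass. Egln1 and Egln3 are among the 12. The median was 0.31 against 0.005 over all genes, with 38 of 50 positive, against 51.1% of all genes. Row 2 alone gave a median of 0.24 with 1 call, Ankrd37, and slide row as a term also left 1.

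Ankrd37, an ankyrin repeat protein known as a HIF-1 target, led this list. It ran from −2.09 to −1.06 on DKD arrays (median −1.61) and from −0.03 to 1.11 with enarodustat (median 0.43), without overlap. Its rise was 2.05 ± 0.17 (4.15-fold, adjusted p = 7.25e-08), and 1.92 in row 2 alone (adjusted p = 0.0143). P4ha1, the catalytic subunit of collagen prolyl 4-hydroxylase, ran from −1.87 to −0.94 on DKD arrays (median −1.14) and from −0.64 to −0.15 with enarodustat (median −0.42). It rose by 0.87 ± 0.11 (adjusted p = 7.05e-05) and its row 2 difference was 0.73 (adjusted p = 0.144). Its paralogue P4ha2 rose by 0.34 ± 0.07 (adjusted p = 0.0308). The P4ha genes were the 2 calls among 38 matrix and fibrosis genes tested (5.26%, against 0.716% of all genes). The median of that list was 0.24, with 33 of 38 positive. At an unadjusted p under 0.05 by limma, 15 of the 38 were higher and 0 lower.

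Stc1, the secreted hormone stanniocalcin 1, ran from −4.45 to −2.90 on DKD arrays (median −3.32) and from −2.56 to −1.70 with enarodustat (median −2.27). It rose by 1.2 ± 0.23 (adjusted p = 0.0095) without overlap, and the row 2 value was 1.31 (adjusted p = 0.228). Normexp correction reduced the rise of Stc1 to 0.46 (adjusted p = 0.00245). Ddit4, an inhibitor of mTORC1 that responds to stress, rose by 1.01 ± 0.22 (adjusted p = 0.032). The call of Ddit4 was lost without DKD 3, 4, 5 or 7 or enarodustat 1, 2, 3 or 4 (adjusted p up to 0.0654).

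Named after their values were seen, Stc2 rose by 0.82 (adjusted p = 0.0188; normexp 0.39, adjusted p = 0.0768), Fam162a, a mitochondrial protein, by 0.60 (adjusted p = 0.0286) and Ero1a, which drives disulfide formation in the endoplasmic reticulum, by 0.39 (adjusted p = 0.00333). Fam162a lost its call without DKD 5 or 7 or enarodustat 4, 6 or 8 (up to 0.0601), and P4ha2 lost its call without DKD 1 or enarodustat 1, 4, 8 or 9 (up to 0.0605). Other well-known targets did not pass. Bnip3, which directs removal of mitochondria, differed by 0.41 (adjusted p = 0.411), Tfrc, the transferrin receptor, by 0.46 (adjusted p = 0.315), Ndrg1 by −0.03 (adjusted p = 0.974), Hilpda, a lipid droplet protein, by 0.36 (adjusted p = 0.340) and Angptl4, an inhibitor of lipoprotein lipase, by −0.39 (adjusted p = 0.751). Epo was not tested, since 1 of its probes was well above background on 1 DKD and 1 enarodustat array and the other on 1 sham array.

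**Figure D3:**
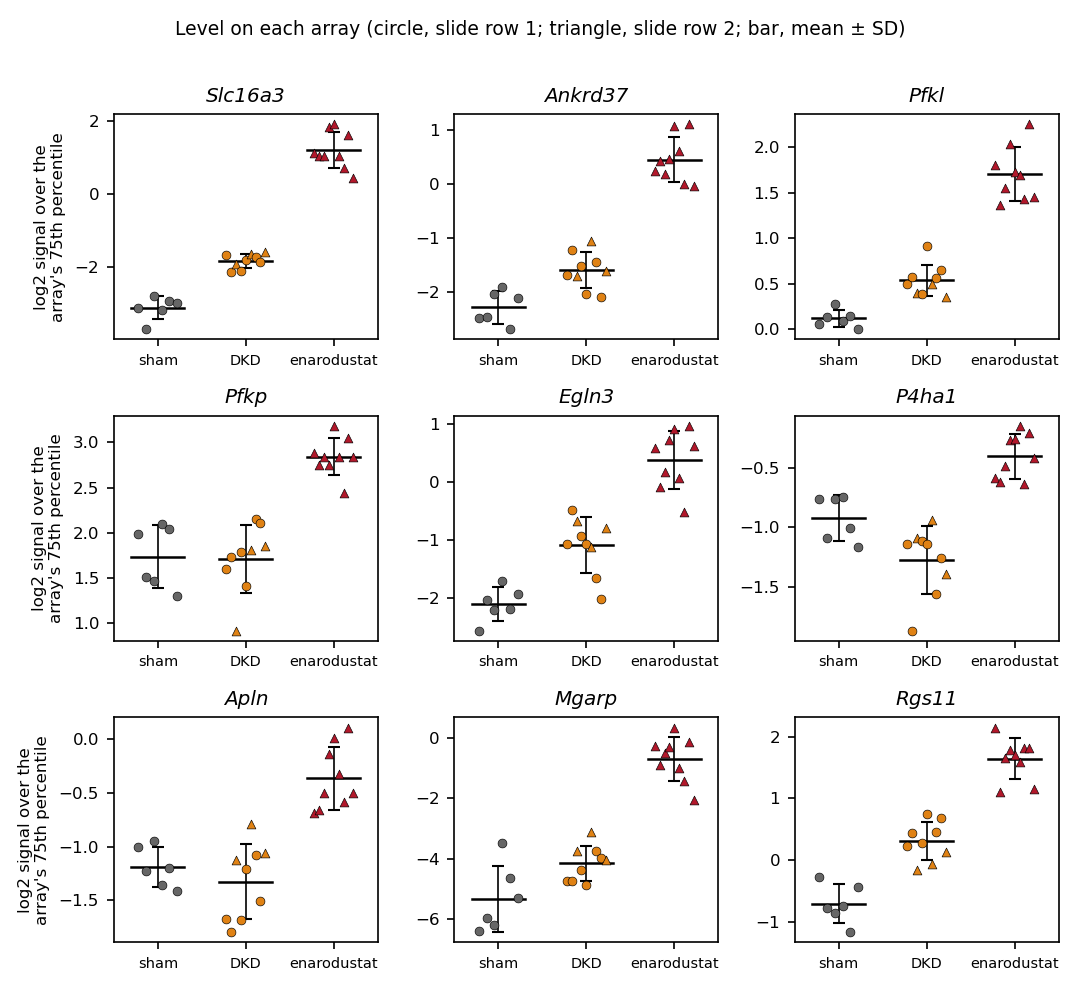
Each point is 1 array, as log2 signal over its array's 75th percentile, with circles for slide row 1 and triangles for slide row 2; bars give the mean and SD of 6 sham, 9 DKD and 9 enarodustat arrays. In Slc16a3, Ankrd37, Pfkl, Pfkp, P4ha1, Apln, Mgarp and Rgs11 every enarodustat array lies above every DKD array, whereas Egln3 has 1 that does not. The means of DKD triangles and circles differ, and the row 2 difference was smaller than that of all arrays for some of these genes and larger for others.

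Of 28 angiogenic ligands and receptors tested, 4 rose, 0 fell and 24 did not pass, with a median of 0.22. The 4 were 14.3% of the list, against 0.716% of all genes. Adm and Apln are also counted among the HIF targets, and Tie1 among the endothelial markers. The count of angiogenic calls was 0 by limma in row 2 alone (7 at an unadjusted p under 0.05) and with slide row in the model. It was 1, Apln, with DKD and enarodustat arrays fitted alone or after scaling by the median of the array. It ran from 2 to 4 when 1 array was left out and was 7 of 27 in the deposited table. Apln, the vessel peptide apelin, ran from −1.80 to −0.79 on DKD arrays (median −1.21) and from −0.69 to 0.11 with enarodustat (median −0.50), without overlap. It rose by 0.96 ± 0.14 (adjusted p = 0.000353), and its row 2 difference was 0.63 (adjusted p = 0.388). Aplnr, the apelin receptor, ran from −4.14 to −2.77 on DKD arrays and from −2.95 to −2.40 with enarodustat, and it rose by 0.70 ± 0.14 (adjusted p = 0.0200). Ligand and receptor thus both rose, although Aplnr did not pass after normexp correction (0.24, adjusted p = 0.162) or with DKD and enarodustat arrays fitted alone (adjusted p = 0.0676). Adm, the vasodilator peptide adrenomedullin, rose by 0.83 ± 0.20 (adjusted p = 0.0484), with 0.35 in row 2 alone, and passed only without DKD 3, DKD 9 or enarodustat 7 when 1 array was left out (adjusted p up to 0.108). Vegfa, the main vessel growth factor, ran from 2.41 to 3.15 on DKD arrays (median 2.88) and from 2.78 to 3.51 with enarodustat (median 3.24). Its difference of 0.40 ± 0.11 did not pass (adjusted p = 0.0892), and its 4 probes gave 0.26 to 0.63. Its receptors Kdr and Flt1 differed by 0.16 and −0.04 (adjusted p = 0.647 and 0.965).

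Of 12 endothelial markers tested, 6 rose, each by 0.37 to 0.44, and 0 fell (50%), 11 were positive, and the median was 0.31. Among all genes tested 0.609% rose, 51.1% were positive and the median was 0.005. The 6 were Cdh5, Egfl7, Ehd3, Emcn, Plvap and Tie1. The junction protein Cdh5 ran from −0.20 to 0.35 on DKD arrays (median 0.14) and from 0.23 to 0.84 with enarodustat (median 0.55), and rose by 0.43 ± 0.08 (adjusted p = 0.0103). Emcn, a sialomucin of vessel walls, and Plvap, the protein of capillary diaphragms, rose by 0.43 and 0.42 (adjusted p = 0.0191 and 0.0139). Egfl7, the receptor Tie1 and the endocytic protein Ehd3 rose by 0.44, 0.40 and 0.37 (adjusted p = 0.0484, 0.0422 and 0.0456). Apart from Tie1, which the naming rule held, these markers were named after their values were seen. The summed level of the 12 markers on a linear scale ran from 65.2 to 77.4 on DKD arrays, 74.3 to 98.6 on enarodustat arrays and 63.8 to 72.9 on sham arrays, and 12 of 12 were well above background on all 18 DKD and enarodustat arrays. In whole tissue, more cells of a type and more RNA per cell cannot be told apart, and the part of endothelial cells in the rises of Apln and Aplnr was not tested.

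Markers of other cell types were set beside these, with 51.1% of all genes positive and 0.716% passing. All 14 macrophage and dendritic cell markers were positive (median 0.36), of which 0 passed by limma and 7 were higher at an unadjusted p under 0.05. Their summed level ran from 33.4 to 67 on DKD arrays, 43.4 to 103 with enarodustat and 56.6 to 70.7 in sham. All 6 B and plasma cell markers were positive (median 0.68), with 0 passing and 4 higher at an unadjusted p under 0.05, and their sum ran from 1.07 to 7.94 on DKD arrays, 1.78 to 11.3 with enarodustat and 2.84 to 23 in sham. Of 13 fibroblast, mesangial and smooth muscle markers 11 were positive (median 0.24), and 1 rose, the integrin Itga8 (0.45, adjusted p = 0.0402, named after its value was seen). When 1 array was left out Itga8 passed only without DKD 1, 4, 6 or 8 or enarodustat 1 or 9 (adjusted p up to 0.0838), and it did not pass in row 2 alone (0.52, adjusted p = 0.396), with slide row in the model (0.208), without sham (0.114), after scaling by the median of the array (0.138) or with no filter (0.0614). Of 18 proximal tubule markers 14 were negative (median −0.16), with 0 passing and 5 lower at an unadjusted p under 0.05, and their sum ran from 1680 to 2260 on DKD arrays and from 1520 to 2020 with enarodustat. The part of these cell types in the other results was not tested.

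The endothelial calls depended on the arrays and the scaling. In row 2 alone 0 of the 6 passed by limma (list median 0.29, with 6 of the 12 markers at an unadjusted p under 0.05), as with slide row as a term or with scaling by the array median. When DKD and enarodustat arrays were fitted without sham 1 passed. Egfl7 passed only without DKD 4, 6 or 9 or enarodustat 2 or 7 (adjusted p up to 0.101), Ehd3 only without DKD 1 or 8 or enarodustat 2 or 5 (up to 0.102), and Tie1 only without DKD 5, 6 or 8 or enarodustat 2 or 5 (up to 0.0986). Pecam1, the classical endothelial adhesion molecule, differed by 0.18 (adjusted p = 0.395).

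**Figure D4:**
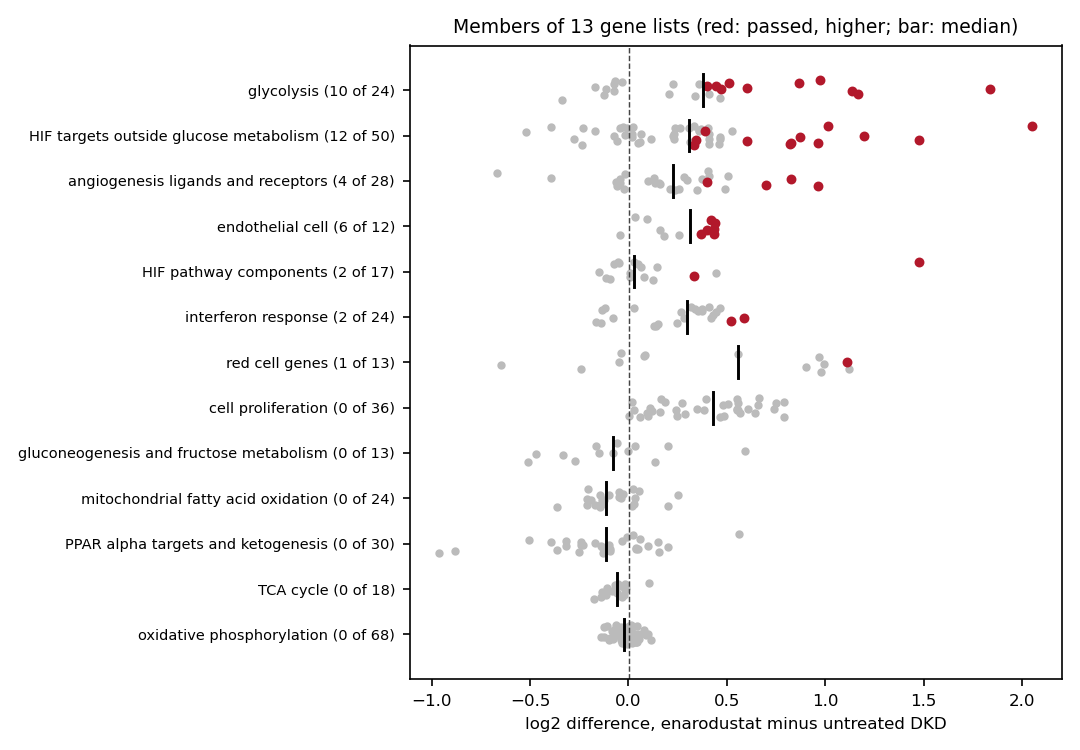
Each point is 1 tested gene of the list named at left, with the number passed and tested in brackets; the x axis is the log2 difference, enarodustat minus untreated DKD, the black bar is the list median and the dashed line the median of all genes. Red points, which passed, are frequent in glycolysis (10 of 24), HIF targets (12 of 50) and endothelial markers (6 of 12), and 0 are seen in oxidative phosphorylation, the TCA cycle and fatty acid oxidation. Of all genes 0.716% passed, and 0 is near that share for lists of these sizes. Some genes are in more than 1 list.

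The naming rule brought up several strong rises that belong to no metabolic list. Mgarp, a mitochondrial protein linked to mitochondrial transport, had the largest difference of all genes that passed. It ran from −4.88 to −3.12 on DKD arrays (median −4.05) and from −2.06 to 0.35 with enarodustat (median −0.48), and it rose by 3.47 ± 0.35 (adjusted p = 2.76e-06). The row 2 value of Mgarp was 2.95 (adjusted p = 0.0189), and after normexp correction the rise was 1.5 (adjusted p = 1.65e-06). Tnfsf9, the ligand of the T cell receptor 4-1BB, ran from −5.15 to −3.92 on DKD arrays and from −3.02 to −2.05 with enarodustat. It rose by 1.99 ± 0.16 (adjusted p = 7.25e-08), and by 2.00 in row 2 alone (adjusted p = 0.0139), but by 0.61 after normexp correction (adjusted p = 4.39e-05). Both genes were dim on DKD arrays, and their groups did not overlap.

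Rgs11, a regulator of G-protein signalling, ran from −0.16 to 0.75 on DKD arrays and from 1.1 to 2.15 with enarodustat, and rose by 1.34 ± 0.15 (adjusted p = 1.05e-05; row 2 alone 1.67, adjusted p = 0.0131). Slc4a11, a membrane ion transporter named here as 1 of the row 2 calls, rose by 1.09 ± 0.15 (adjusted p = 0.000178; row 2 alone 1.19). These 2 genes were well above background on every DKD and enarodustat array, and normexp correction moved neither rise by more than 1.5 times.

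Ppp1r3g, which targets protein phosphatase 1 to glycogen, was the only 1 of 23 glycogen genes to pass (4.35%, against 0.716% of all genes). It ran from −7.69 to −4.69 on DKD arrays, with 4 of 9 well above background, and from −4.22 to −2.76 with enarodustat, with 9 of 9. It rose by 2.39 ± 0.32 (adjusted p = 0.000161), and by 2.67 in row 2 alone (adjusted p = 0.0182). Ppp1r3g did not pass after normexp correction (0.32, adjusted p = 0.0651). Gm11110, detected above background on 2 of 9 untreated and 9 of 9 treated arrays, rose by 2.54 ± 0.23 (adjusted p = 3.97e-07). This size and p rest largely on dim DKD signals. After normexp correction Gm11110 did not pass (0.35, adjusted p = 0.0562). The other row 2 call, 4931428F04Rik, rose by 0.78 ± 0.14 (adjusted p = 0.00401; normexp 0.224, adjusted p = 0.0601).

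Other genes of the rule rose on dim probes or without a known role. The unnamed gene 1600014C23Rik rose by 2.75 ± 0.34 (adjusted p = 6.86e-05; normexp 1.22), and 2310043L19Rik by 1.18 ± 0.22 (adjusted p = 0.00783; row 2 alone 0.78). Prnd, the prion-like protein doppel, rose by 1.54 ± 0.28 (adjusted p = 0.00548) and Pimreg, a mitotic regulator, by 1.19 ± 0.20 (adjusted p = 0.00345). After normexp correction Prnd was at 0.30 (adjusted p = 0.096) and Pimreg at 0.28 (adjusted p = 0.143), neither passing. Gapt, an adaptor protein of immune cells, was not well above background on any DKD array or any sham array and was so on 6 of 9 enarodustat arrays, through which alone it entered the test. It was at least 1.48-fold higher with enarodustat, taking the bright group's mean over the lowest detectable signal of the other arrays. The limma adjusted p of 0.0223 was drawn from DKD signals that were not well above background, so it is not separate support for a rise. The call of Gapt was lost without enarodustat 4 or 8 (adjusted p up to 0.0504) and after normexp correction (0.13, adjusted p = 0.800).

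The 19 falls were small. Prss12, a secreted serine protease, ran from −2.01 to −1.45 on DKD arrays (median −1.76) and from −2.84 to −2.09 with enarodustat (median −2.37), and it fell by 0.64 on the log2 scale (−0.64 ± 0.10, adjusted p = 0.00126). Sntb2, a syntrophin of the membrane skeleton, ran from 0.25 to 0.79 on DKD arrays (median 0.69) and from −0.40 to 0.22 with enarodustat (median 0.12), a fall of −0.55 ± 0.09 (adjusted p = 0.00188). These were the only 2 falls without overlap. Prss12 was at −0.35 after normexp correction (adjusted p = 0.00366) and −0.72 in row 2 alone (adjusted p = 0.228), and Sntb2 at −0.43 in row 2 alone (adjusted p = 0.445).

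Of 25 genes of phosphate, calcium and vitamin D handling 1 passed (4%, against 0.716% of all genes). This was Casr, the calcium-sensing receptor of the thick ascending limb. It ran from 0.11 to 0.76 on DKD arrays (median 0.38) and from −0.26 to 0.20 with enarodustat (median −0.15), and it fell by −0.46 ± 0.08 (adjusted p = 0.00493). In row 2 alone Casr differed by −0.47 and did not pass (adjusted p = 0.398 by limma). The summed level of the 8 thick ascending limb markers ran from 301 to 373 on DKD arrays and from 303 to 371 with enarodustat. Those ranges nearly coincide, but at an unadjusted p under 0.05 by limma 3 of the 8 markers were lower and 0 higher. None passed, and their median was 0.03, with −0.17 in row 2 alone. The part of these cells in the fall of Casr was not tested.

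The largest fall was in Utp20, of ribosomal RNA processing, at −0.65 ± 0.14 (adjusted p = 0.0270), a gene that was 1.05 higher in untreated DKD than in sham and 0.39 higher in treated kidneys than in sham. Rab6b, a GTPase of Golgi traffic, fell by −0.48 (adjusted p = 0.0240), with 0.68 and 0.20 for the same comparisons with sham. The kallikrein-family gene Klk1b27 changed by −0.57 (adjusted p = 0.0319), Zfp697 by −0.47 (adjusted p = 0.0401), the actin regulator Baiap2 by −0.42 (adjusted p = 0.0319), the B cell adaptor Blnk by −0.40 and the phospholipase Ddhd2 by −0.39 (adjusted p = 0.0395 for both). Ccdc189 and Sox1 changed by −0.37 and −0.35 (adjusted p = 0.0315 and 0.0206). Each of these 9 lost its call with DKD and enarodustat arrays fitted alone and after scaling by the median of the array. Zfp697 passed only without DKD 7 or 9 or enarodustat 7, Blnk only without DKD 6 or 8 or enarodustat 1 or 4, and Ddhd2 only without DKD 1, 8 or 9 or enarodustat 4, and Klk1b27, Baiap2 and Ccdc189 were lost without 8, 9 and 8 of the 18 arrays. Normexp correction also ended the calls of Klk1b27 (−0.23, adjusted p = 0.224), Ccdc189 (−0.19, adjusted p = 0.211) and Sox1 (−0.10, adjusted p = 0.843). Utp20 lost its call without DKD 2, 3 or 7 or enarodustat 5, and Sox1 without enarodustat 8.

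Mitochondrial and lipid pathways had few calls or 0. Since 0.716% of all genes passed, 0 calls in lists of these sizes is near that share. Among 68 genes of oxidative phosphorylation 0 passed (median −0.02), as among 18 of the TCA cycle (−0.06), 24 of mitochondrial fatty acid oxidation (−0.11) and 30 PPAR alpha targets and ketogenesis genes (−0.11). At an unadjusted p under 0.05 by limma, 0, 2, 2 and 2 genes of these lists were counted in either direction. PPAR alpha is the receptor that switches on fatty acid use. Row 2 medians of the 4 lists were −0.24, −0.24, −0.26 and −0.32, and within slide 2 they were positive. Among untreated DKD arrays alone, row 2 exceeded row 1 in these lists by medians of 0.34, 0.26, 0.27 and 0.34.

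Of the single genes of fuel choice named here, 1 passed. Cyp4a14, a fatty acid hydroxylase and PPAR alpha target, ran from −4.31 to 0.91 on DKD arrays (median −2.67) and from −4.27 to 0.10 with enarodustat (median −3.11), and it differed by −0.36 ± 0.78 (adjusted p = 0.946). Cpt1a, which brings fatty acids into mitochondria, differed by −0.15 (adjusted p = 0.619) and Acadm, an enzyme of their oxidation, by 0.25 (adjusted p = 0.410). Pdk1, the HIF-linked kinase that shuts pyruvate out of mitochondria, ran from −0.22 to 2.06 on DKD arrays (median 0.76) and from 0.73 to 2.77 with enarodustat (median 2.09). Its difference of 1.02 ± 0.34 did not pass (adjusted p = 0.206), its 4 probes gave 0.02 to 1.1, and slides 1 and 2 gave −0.01 and 1.79. Pdk4 differed by 0.04 (adjusted p = 0.985). Of 12 mitochondrial genes linked to HIF, Ndufa4l2, which lowers respiratory chain activity, was the 1 that passed (8.33%, against 0.716% of all genes). Its rise was 0.54 ± 0.12 (adjusted p = 0.0319), with a row 2 value of 0.29. Ndufa4l2 lost its call without DKD 2, 5, 7 or 8 or enarodustat 2, 4, 5, 6 or 8 (adjusted p up to 0.0683).

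Gluconeogenesis, amino acid and stress genes gave isolated values, with 0.716% of all genes passing. Of 13 genes of gluconeogenesis and fructose metabolism 0 passed by limma, with 1 higher and 3 lower at an unadjusted p under 0.05. Pck1, its entry enzyme, ran from 7.16 to 8.21 on DKD arrays (median 7.33) and from 6.45 to 7.31 with enarodustat (median 6.94), a difference of −0.51 ± 0.15 (adjusted p = 0.130) with 6 of 9 treated arrays below every DKD array. G6pc, which releases free glucose, differed by −0.47 (adjusted p = 0.333), and Txnip, a glucose-responsive protein, by −0.23 (adjusted p = 0.659). Acmsd, which diverts tryptophan breakdown from NAD synthesis, was the only 1 of 50 amino acid degradation genes to pass. It ran from 0.93 to 1.86 on DKD arrays (median 1.45), from 1.4 to 2.70 with enarodustat (median 2.30) and from 1.96 to 2.39 on sham arrays, and it rose by 0.78 ± 0.15 (adjusted p = 0.0103). With DKD and enarodustat fitted alone it gave 0.78 (adjusted p = 0.0518).

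Genes of injury, proliferation and the interferon response had few calls or 0, where 0.716% of all genes passed and 51.1% were positive. The injury markers Havcr1 and Lcn2 differed by 0.24 and −0.05 (adjusted p = 0.927 and 0.979), and 0 of 26 tubular injury genes passed by limma (4 higher and 1 lower at an unadjusted p under 0.05). Of 36 proliferation genes 0 passed by limma, 17 were higher at an unadjusted p under 0.05, and all 36 differences were positive (median 0.43), with medians of 0.71, 0.42 and 0.06 in slides 1, 2 and 3. The proliferation median against sham was 0.73 in untreated and 1.18 in treated kidneys. Among 24 interferon response genes 2 rose, the antiviral genes Rsad2 (0.59, adjusted p = 0.0315) and Oasl2 (0.52, adjusted p = 0.0422), with a list median of 0.30. Rsad2 lost its call without DKD 1, 3, 7 or 9 or enarodustat 3, 4, 5, 6 or 8 (up to 0.0652), and Oasl2 passed only without DKD 4, 6 or 8 or enarodustat 4 (up to 0.0937).

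Of 13 red cell genes, Hbb-bt, an adult beta globin, rose (7.69%, against 0.716% of all genes). The number that rose was 5 with slide as a fixed block, 4 in the deposited table, 3 with slide as a random block, normexp or quantile normalization, and 4 without DKD 2 or enarodustat 7. It was 0 by limma in row 2 alone (8 at an unadjusted p under 0.05), with slide row in the model, without sham and after scaling by the median of the array. Hbb-bt ran from 3.75 to 5.64 on DKD arrays (median 4.77) and from 4.71 to 6.62 with enarodustat (median 5.66), a difference of 1.11 ± 0.26 (adjusted p = 0.0422). Its probe may share signal with the other adult globin copies. The call of Hbb-bt was kept only without DKD 2 or 5 or enarodustat 2, 3 or 7 (adjusted p up to 0.0927 otherwise), and slides 1, 2 and 3 gave 0.25, 1.51 and 1.57. The summed level of 5 red cell markers ran from 183 to 550 on DKD arrays, 281 to 872 with enarodustat and 328 to 784 in sham, so the ranges of the 3 groups overlapped. The amount of blood left in the tissue was not tested.

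Values against sham stand beside the main ones for the leading genes. They share the DKD or enarodustat arrays with the comparison, so they are descriptions. All 6 sham arrays lay in slide row 1 and all 9 enarodustat arrays in row 2, so row and group cannot be told apart in the values of treated kidneys against sham. Slc16a3 was 1.29 higher in untreated DKD than in sham and 4.33 higher in treated kidneys than in sham. The same pair of values was 0.69 and 2.74 for Ankrd37, 1.02 and 2.5 for Egln3, 0.42 and 1.58 for Pfkl, −0.03 and 1.11 for Pfkp, −0.36 and 0.52 for P4ha1 and −0.13 and 0.83 for Apln. For Acmsd it was −0.69 and 0.08, and for Egln1 −0.22 and 0.12. List medians against sham were 0.07 and 0.31 for glycolysis and 0.07 and 0.47 for HIF targets outside glucose metabolism. Both medians were nearer to 0 in untreated than in treated kidneys.

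**Figure D5:**
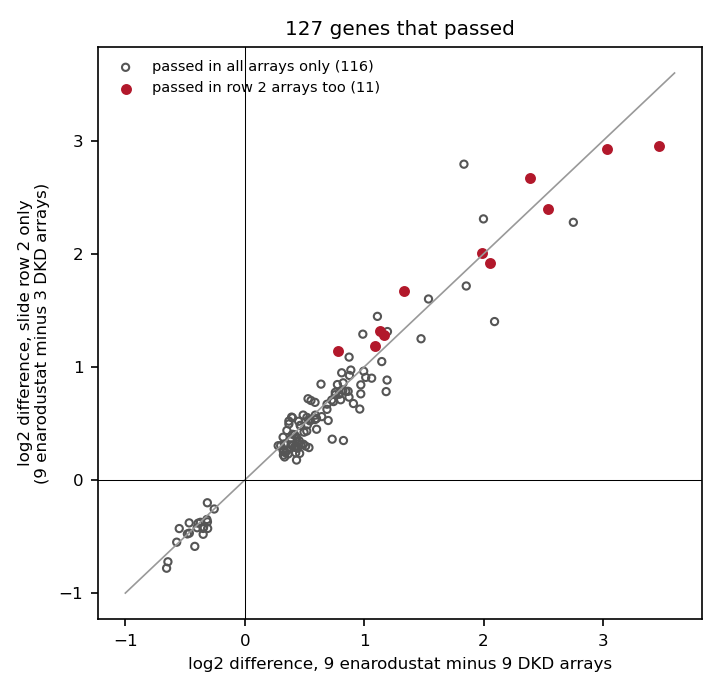
Each point is 1 of the 127 genes that passed; the x axis is the log2 difference over 9 enarodustat and 9 DKD arrays, the y axis the difference in slide row 2 alone (9 enarodustat, 3 DKD), and the grey line marks equality. All points lie on the same side of 0 on both axes, which share the 9 enarodustat and 3 of the DKD arrays, and the 11 red genes also passed in row 2 alone.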

How the data were processed

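The deposited scanner files hold Agilent signal intensity per spot; per the file headers they come from Feature Extraction 12.1.1.1, and the submitters' processing notes name Feature Extraction 11.5.1.1 and limma. Its processed signal, which the software corrects for background, was taken as log2 minus the 75th percentile of each array. The series' value table, deposited by the authors as log2 values, was an alternative. Control spots and spots flagged as outliers were dropped, which left 20 values missing among the tested genes. Each gene was represented by its probe of highest mean, and 17736 genes with a signal well above background on 6 or more of 24 arrays were tested. limma 3.58.1 in R 4.3.3 was fitted to all 24 arrays by group, with Benjamini-Hochberg adjustment at 0.05. The number of arrays limits the precision. The script was tested on simulated data. Members and lists were chosen with earlier results of these data known. The genes named were the 12 largest rises and falls among genes detected above background on 50% or more of each group's arrays, up to 6 per direction not detected in 1 group, up to 4 passing members per list, and a fixed set of HIF and energy genes; others are marked where named, and 2 genes of the rule or lists are not reported here. Gene names follow RefSeq. Alternatives were row 2 arrays alone, slide row or slide in the fit, background correction, scaling, probe choice, filters and leaving out each array.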

Additional observations from a re-analysis of the deposited data

Results flagged for a closer look

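In 14 of 190 groups of 9 arrays checked (95 genes), the highest or lowest array stood apart from the other 8 by more than 0.493 of the range of the group, which chance gives in about 1 of 20 groups. Lcn2 was high in DKD 2 (0.06, next array −1.39) and in enarodustat 1 (0.23, next −1.16), and Havcr1 was high in enarodustat 8 (−1.78, next −3.11). Among glucose genes, Pck1 was high in DKD 3 (8.21, next 7.61) and Pfkfb3 was low in DKD 9 (−0.39, next 0.17). DKD 9 was also the low array for Epas1 (3.54, next 4.19) and Flt1 (2.26, next 2.79). Enarodustat 5 was high for the endothelial markers Egfl7 (5.40, next 4.89) and Emcn (3.91, next 3.61) and low for Sntb2 (−0.40, next −0.09). The low values of 1600014C23Rik in DKD 8 (−5.48, next −4.12) and of Pimreg in DKD 1 (−5.60, next −4.42) lay on the side that widens the difference from treated arrays. Rab6b was low in enarodustat 6 (−0.77, next −0.24) and Ddhd2 was high in enarodustat 4 (0.87, next 0.52). Of these genes, 1600014C23Rik, Pfkfb3, Pimreg, Emcn, Sntb2 and Rab6b passed in every fit that left out 1 array, while Egfl7 and Ddhd2 lost their calls in 13 and 14 of the 18 fits.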

How the results depend on the processing

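All 127 calls kept their sign under every alternative that measured them (113 of 127 in the deposited value table), but their number varied. Every alternative used the arrays that gave the calls, or part of them, so the kept sign is not separate support. Against 127 calls, 61 of them at least 1.5-fold and 85.0% higher, row 2 arrays alone gave 11 calls, 11 at least 1.5-fold and 100% higher, and slide row as a term gave 20 and 18. Slide 1 alone gave 4 calls, 4 at least 1.5-fold and 100% higher, slide 2 alone 3, 3 and 100%, and slide 3 alone 0 and 0 by limma, with 544 genes at an unadjusted p under 0.05. DKD and enarodustat arrays fitted without sham gave 47 and 36, scaling by the median of the array 36 and 33, and no filter on dim probes 83. Normexp on median signals gave 105 calls with 29 at least 1.5-fold, and the deposited values 149 calls with 26, 69.1% of them higher. Leaving out 1 array gave 71 to 128 calls, 46 to 66 at least 1.5-fold and 76.9 to 90.9% higher, with drops of over 1.5 times without DKD 7 (82) and enarodustat 4 (82), 5 (84), 6 (84) or 8 (71), and 62 of the 127 passed in all 18 fits. Replicate numbers did not pair the arrays (same-number correlations −0.223 to 0.262, and 0 of 9 treated arrays closest to their own number), and a replicate block gave 66 calls. Slide as a fixed block gave 177 and as a random block 151. Normexp on mean signals was planned and not run, because the files hold no mean signal; the median version was chosen after seeing the data. Signal over background limits Hk2, Ppp1r3g, Gm11110 and Gapt. The row 2, single-slide and left-out fits hold fewer arrays. The cause of these differences in number was not tested.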
